A study of Rattus norvegicus with 22 samples.

Results

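Reactive oxygen species are made and removed by 2 sets of enzymes whose transcripts were followed here in the ventral cervical spinal cord of rats. The genes are Cybb, Cyba, Ncf1 and Nox4 of the NADPH oxidases, and Sod1, Sod2, Cat, Gpx1 and Hmox1 of the antioxidant enzymes. They were taken by symbol, and all 9 were found among the 32883 genes of the count table.

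Bulk RNA was sequenced from the ventral side of spinal segments C3-C6 of 22 Sprague-Dawley rats, 1 library per rat. The rats were young adults of 3 to 4 months. The 5 intact males and 6 intact females kept their gonads, the 5 GDX males had both testes removed, and the 6 OVX females, virgin like the intact ones, had both ovaries removed. Tissue of the operated rats was taken 2 weeks after surgery, and every rat was perfused with cold saline through the heart under isoflurane. The methods describe a long-acting opioid and surgery for the gonadectomized rats but neither a sham operation nor hormone replacement, so loss of the gonads cannot be told apart from the operation itself. The question put to these genes was whether gonadectomy or sex altered their transcript levels.

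NADPH oxidases move electrons from NADPH across a membrane to oxygen and so form superoxide, or, in the case of NOX4, mainly hydrogen peroxide. The phagocyte enzyme NOX2 consists of a membrane pair, encoded by Cybb and Cyba, which works only once cytosolic subunits such as the one encoded by Ncf1 have joined it. In the spinal cord this enzyme is known mainly from microglia and other myeloid cells. Superoxide dismutases turn superoxide into hydrogen peroxide, catalase and glutathione peroxidases remove the peroxide, and haem oxygenase-1 breaks down haem and is induced under oxidative stress.

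The promoters of the 3 NOX2 genes are shown because these genes had the highest log2 fold changes after either operation among the 8 genes that could be tested. They are the 250 bases before the start of each gene on the gene's own strand, from RefSeq on the build GRCr8, which held promoters for 8 of the 9 genes. The promoter window of Cybb is chrX:16065066-16065315 (minus strand), that of Cyba chr19:67404215-67404464 (minus strand) and that of Ncf1 chr12:28121635-28121884 (plus strand). Capitals mark matches, on either strand, to GAGGAA, the core bound by the myeloid factor PU.1, or to TGACNNNGC, the core of the antioxidant response element bound by NRF2, and the 2 motifs do not overlap in these windows.
Cybb: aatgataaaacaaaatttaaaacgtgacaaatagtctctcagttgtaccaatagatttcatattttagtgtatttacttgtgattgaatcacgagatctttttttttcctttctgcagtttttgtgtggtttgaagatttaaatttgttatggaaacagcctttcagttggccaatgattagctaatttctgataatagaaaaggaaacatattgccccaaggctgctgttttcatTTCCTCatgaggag
Cyba: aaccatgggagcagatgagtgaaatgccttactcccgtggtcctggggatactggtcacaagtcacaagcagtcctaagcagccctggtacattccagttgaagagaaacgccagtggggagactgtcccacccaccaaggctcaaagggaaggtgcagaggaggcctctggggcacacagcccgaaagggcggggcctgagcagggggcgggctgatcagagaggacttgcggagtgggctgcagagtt
Ncf1: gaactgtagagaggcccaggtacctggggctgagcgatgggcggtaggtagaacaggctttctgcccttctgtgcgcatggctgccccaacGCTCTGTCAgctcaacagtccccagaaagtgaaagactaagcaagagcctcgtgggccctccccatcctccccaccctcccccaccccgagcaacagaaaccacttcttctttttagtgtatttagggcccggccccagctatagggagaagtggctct
The Cybb promoter held GAGGAA on the opposite strand, 14 to 9 bases before the start, where the printed strand reads TTCCTC. The Ncf1 promoter held TGACNNNGC on the opposite strand, 159 to 151 bases before the start, and the Cyba promoter held neither. Of all 33469 promoters in this table, 23.3% held GAGGAA and 10.1% held TGACNNNGC, so a match of either kind is common and only describes these letters. The counts themselves were made on the build Rnor_6.0, for which no annotation was used here, so positions of the genes in that build are not given.

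The libraries held between 12371756 and 17571887 counted reads. Levels are given as CPM, the reads of a gene per 1000000 reads of its library, with library sizes scaled by edgeR's TMM factors. Reads per gene length were not computed, so levels are compared between groups and not between genes. The libraries fell into 2 classes of average input fragment size, with 15 short-fragment and 7 long-fragment libraries. The short class held every GDX and OVX library but only 4 from intact rats, those of males 2 and 5 and of females 1 and 4, so that the class moves with gonadectomy. Defining markers of spinal cord were present in every group, with a summed level of 20707 to 26352 CPM for 5 oligodendrocyte genes and of 327 to 636 CPM for 6 motor neuron genes.

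The quasi-likelihood test of edgeR was used with Benjamini-Hochberg adjustment over all genes tested, and a gene was called changed where the adjusted p was under 0.1. After castration 0 of 8 genes were called, where 13.4% of all genes were, and 4 of the 8 had an unadjusted p under 0.05, against 23.8% of all genes. After ovariectomy 0 of 8 were called, where only 0.0335% of all genes were, and 3 of the 8 had an unadjusted p under 0.05, against 10.2% of all genes. DESeq2 called 0 of the 8 after castration, where it called 14.1% of all genes fitted, and 1, Cybb, after ovariectomy, where it called 1.17%. Nox4 did not pass the filter on low counts in any comparison and is the ninth gene. None of the 9 genes had CPM values that separated gonadectomized from intact rats without overlap, which 7.47% of genes did in males and 0.543% in females. The median log2 fold change of the 8 genes was 0.16 after castration and 0.051 after ovariectomy, beside 0.0021 and 0.0025 over all genes tested.

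Cybb (ENSRNOG00000003622) encodes gp91phox, the catalytic subunit of NOX2. Its level was 4.18, 6.36, 4.00, 5.07 and 2.099 CPM in intact males 1, 2, 3, 5 and 6. In GDX males 1, 2, 4, 5 and 6 it was 2.85, 5.83, 8.09, 9.50 and 7.63 CPM. GDX male 1 lay within the intact range, as did GDX male 2, and the other 3 GDX males lay above every intact male. In intact females the level ran from 4.54 CPM through a median of 5.09 to 6.20 CPM, and in OVX females from 6.13 through 6.97 to 8.57 CPM. Of the 6 OVX females, 5 lay above all 6 intact females, and the lowest OVX value was just under the highest intact one. The mean in males was 4.34 ± 1.56 CPM (SD, n = 5) when intact and 6.78 ± 2.56 CPM (SD, n = 5) after castration, and in females 5.18 ± 0.619 CPM (SD, n = 6) when intact and 7.17 ± 0.971 CPM (SD, n = 6) after ovariectomy. The fitted log2 fold change was 0.64 (SE 0.29, edgeR adjusted p = 0.199) after castration and 0.47 (SE 0.12, edgeR adjusted p = 0.172) after ovariectomy. Neither passed the threshold, although the unadjusted edgeR p of 0.000922 in females was the smallest of the 8 genes in that comparison.

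Cyba (ENSRNOG00000013014) encodes p22phox, the membrane partner that stabilizes the catalytic subunits of several NADPH oxidases. Intact males 1, 2, 3, 5 and 6 had 5.31, 4.74, 5.59, 6.00 and 4.40 CPM. GDX males 1, 2, 4, 5 and 6 had 5.77, 6.58, 6.54, 9.50 and 5.54 CPM, of which 3 exceeded every intact male, with GDX male 5 far above the rest. Intact females ranged from 5.60 CPM, with a median of 6.09 CPM, to 7.49 CPM, and OVX females from 6.85, with a median of 7.63, to 8.82 CPM. In OVX females 4 of 6 values lay above the intact range. The log2 fold change was 0.38 (SE 0.16, edgeR adjusted p = 0.158) after castration and 0.29 (SE 0.11, edgeR adjusted p = 0.367) after ovariectomy. Without GDX male 5 the male value was 0.23, the lowest of the 10 fits that each left out 1 male.

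Ncf1 (ENSRNOG00000001480) encodes p47phox, the cytosolic organizer that brings the other soluble subunits to the membrane. Its level was 10.3, 9.62, 10.8, 10.7 and 7.48 CPM in intact males 1, 2, 3, 5 and 6, and 12.1, 13.5, 9.78, 13.3 and 9.39 CPM in GDX males 1, 2, 4, 5 and 6. Again 3 of 5 GDX males were above every intact male, here rats 1, 2 and 5 and not rats 4, 5 and 6 as for Cybb. Intact females ran from 7.01 through 8.93 to 10.3 CPM and OVX females from 8.09 through 10.5 to 13.8 CPM, and 3 of 6 OVX females lay above the intact range. The log2 fold change was 0.25 (SE 0.13, edgeR adjusted p = 0.252) after castration and 0.34 (SE 0.12, edgeR adjusted p = 0.344) after ovariectomy.

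**Figure D1:**
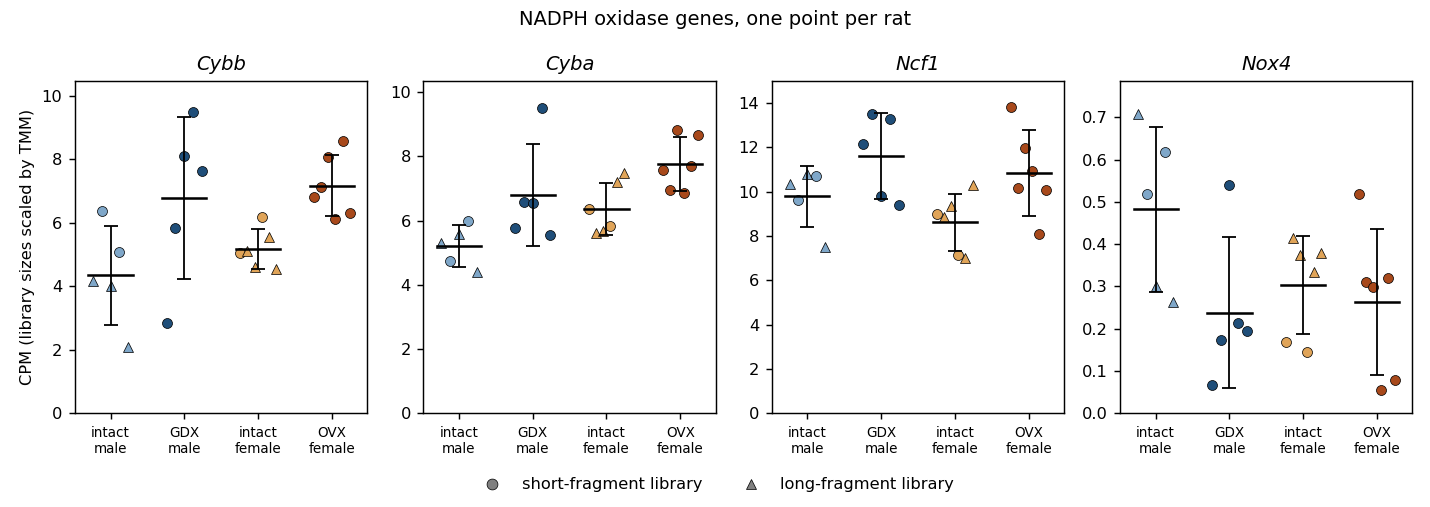
Levels of the 4 NADPH oxidase genes in CPM (vertical axis, from 0) in each of the 22 rats, by group (horizontal axis). Circles are short-fragment and triangles long-fragment libraries, the horizontal line is the group mean and the bar its SD. For Cybb, 5 of 6 OVX females lie above all intact females, and 3 of 5 GDX males lie above all intact males, while Nox4 stays under 1 CPM throughout.

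Nox4 (ENSRNOG00000013925) encodes a constitutively active oxidase known from kidney and blood vessels. It was read between 1 and 10 times per library, with a total of 35 reads over 5 intact males, 18 over 5 GDX males, 27 over 6 intact females and 24 over 6 OVX females. Its level of 0.0557 to 0.709 CPM lay under the filter, and few reads stand behind any comparison of it. With the filter removed, the log2 fold change of Nox4 after castration was -1.01 (SE 0.53, edgeR adjusted p = 0.340, unadjusted 0.0708).

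The sexes were also put together, which was done after the sex-specific changes had been seen. Gonadectomized were compared with intact rats as the average of the male and female changes over all 22 libraries. In this comparison 3 of 8 genes were called, where 16% of all genes were. Cybb, Cyba and Ncf1 rose, with log2 fold changes of 0.55 (SE 0.16, edgeR adjusted p = 0.0258), 0.33 (SE 0.09, edgeR adjusted p = 0.0218) and 0.29 (SE 0.09, edgeR adjusted p = 0.0430). These correspond to 1.47-fold, 1.26-fold and 1.23-fold higher levels. The same rats carry both the separate and the joint comparisons, so the joint values are no independent evidence. In the same joint comparison, markers of other cells were also called higher. For granulocytes these were 5 of 5 tested, out of 9 listed, and for erythroid cells 6 of 6 tested, out of 10 listed. Genes of both lists that lie near the floor can pass the filter on low counts through high levels in gonadectomized rats alone. The tallies of granulocytes and erythroid cells therefore do not describe the full lists. For endothelium 5 of 5 tested were called higher, and for meningeal fibroblasts 9 of 9. Fewer were called higher for pericytes and smooth muscle (3 of 5), astrocytes (3 of 5) and border-associated macrophages (2 of 5). Of 6 motor neuron markers 3 were called lower, and 0 of 5 oligodendrocyte markers were called. For microglia 0 of 9 were called, with a median log2 fold change of 0.15 beside 0.00087 over all genes.

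With the library class as a further term, 0 of the 3 were called in the joint comparison, in which the adjusted edgeR p of Cybb was 0.497, of Cyba 0.171 and of Ncf1 0.222. That fit also called fewer of all genes, 662 against 2486 without the term. The log2 fold change of Cybb was 0.30 with this term, while those of Cyba and Ncf1, at 0.34 and 0.31, were as large as without it. Among the short-fragment libraries alone, the values were 0.30 for Cybb, 0.34 for Cyba and 0.31 for Ncf1, with adjusted edgeR p of 0.513, 0.215 and 0.238. Of all genes 296 were called there. With the meningeal level as a term, 0 of the 3 were called either, at 0.16 for Cybb, 0.17 for Cyba and 0.24 for Ncf1, with adjusted edgeR p of 0.805, 0.608 and 0.442. Of all genes 180 were called with that term. Within the short class the intact group held intact males 2 and 5, with 6.36 and 5.07 CPM of Cybb, and intact females 1 and 4, with 5.06 and 6.20 CPM. Both intact males of the short class had more Cybb than the 3 of the long class, which had 2.099 to 4.18 CPM. The part of the library class in the change of Cybb cannot be told apart from that of gonadectomy in these libraries.

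**Figure D2:**
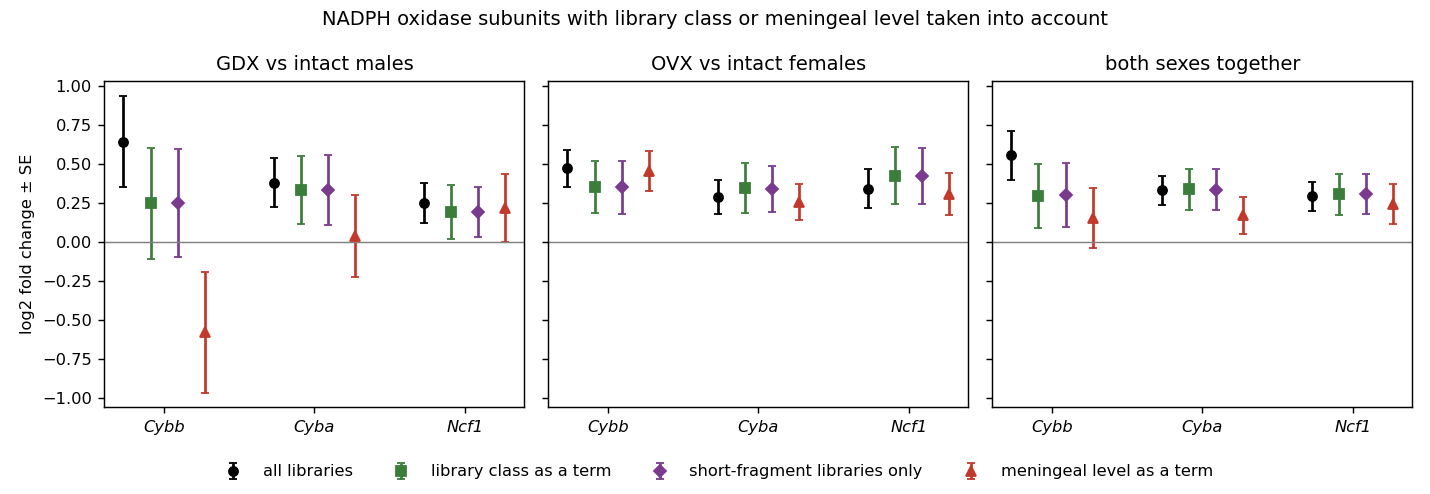
Log2 fold change (vertical axis, bars are SE) of Cybb, Cyba and Ncf1 in males, in females and in both sexes together, each with all libraries, with the library class as a term, in short-fragment libraries only and with the level of meningeal markers as a term. Cybb in males falls from 0.64 to 0.25 with the class term and to -0.58 with the meningeal term. In females it stays between 0.35 and 0.47. Meningeal markers were themselves called higher after castration (9 of 9) and not after ovariectomy (0 of 9). In males this term therefore cannot be told apart from castration, and the sexes are not compared by it.

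The antioxidant enzymes showed no call after gonadectomy in either sex or jointly. Sod1 (ENSRNOG00000002115), the copper-zinc superoxide dismutase of the cytosol, ranged from 87.2 CPM in GDX male 1 to 113 CPM in OVX female 5, and the groups overlapped almost fully. Intact males had a mean of 95.5 ± 5.06 CPM (SD, n = 5), GDX males of 97.3 ± 10.1 CPM (SD, n = 5), intact females of 94.9 ± 4.89 CPM (SD, n = 6) and OVX females of 99.1 ± 9.45 CPM (SD, n = 6). The 95% interval of its log2 fold change ran from -0.11 to 0.17 after castration and from -0.055 to 0.19 after ovariectomy, with edgeR adjusted p of 0.838 and 0.756.

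Sod2 (ENSRNOG00000019048), the manganese superoxide dismutase of mitochondria, was the gene with the smallest spread. It had 165, 158, 162, 156 and 161 CPM in intact males 1, 2, 3, 5 and 6, and 152, 146, 156, 152 and 149 CPM in GDX males 1, 2, 4, 5 and 6. Only GDX male 4, at 156.1 CPM, reached into the intact range, whose lowest value was 155.7 CPM. The log2 fold change was -0.084 (SE 0.038, edgeR adjusted p = 0.189) after castration and 0.025 (SE 0.044, edgeR adjusted p = 0.911) after ovariectomy. In females the levels ran from 140 through 150 to 161 CPM in intact and from 140 through 153 to 160 CPM in OVX rats, which overlapped fully.

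Cat (ENSRNOG00000008364) encodes catalase, the peroxide-removing enzyme of peroxisomes. It varied widely among intact rats, from 108 CPM in intact male 3 to 154 CPM in intact male 6, and from 102 CPM through a median of 121 CPM to 155 CPM in intact females. GDX males had 139, 153, 135, 156 and 133 CPM in rats 1, 2, 4, 5 and 6, and OVX females ran from 104 through 119 to 139 CPM. The log2 fold change was 0.075 (SE 0.081, edgeR adjusted p = 0.623) after castration and -0.066 (SE 0.107, edgeR adjusted p = 0.900) after ovariectomy. With a term for library class, the female value was -0.25 (SE 0.14, edgeR adjusted p = 0.751), and the male one was near 0.

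Gpx1 (ENSRNOG00000048812) encodes the abundant cytosolic glutathione peroxidase. It had 40.8, 40.2, 46.6, 39.8 and 40.3 CPM in intact males 1, 2, 3, 5 and 6, where intact male 3 stood apart from 4 nearly equal values. GDX males 1, 2, 4, 5 and 6 had 38.9, 43.9, 52.1, 50.2 and 49.1 CPM, so that 3 of 5 lay above every intact male and GDX male 1 lay below. The log2 fold change was 0.17 (SE 0.077, edgeR adjusted p = 0.183) after castration. Without GDX male 1 it was 0.23 and passed the threshold, with an adjusted edgeR p of 0.0366, and so did Cybb without this rat, at 0.83 with an adjusted edgeR p of 0.0379. More of all genes were also called without this rat, 2446 against 1995 with all males. GDX male 1 was also the GDX male with the lowest meningeal fibroblast markers, at 181 CPM. In females Gpx1 ran from 40.7 through 44.8 to 48.4 CPM in intact and from 40.8 through 45.1 to 54.4 CPM in OVX rats, with a log2 fold change of 0.036 (SE 0.066, edgeR adjusted p = 0.918).

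Hmox1 (ENSRNOG00000014117), the inducible haem oxygenase, had 8.71, 6.29, 11.4, 7.42 and 8.99 CPM in intact males 1, 2, 3, 5 and 6, and 8.03, 10.1, 7.96, 11.2 and 10.04 CPM in GDX males 1, 2, 4, 5 and 6. Every GDX value lay within the intact range. Intact females ran from 6.86 through 9.75 to 10.5 CPM and OVX females from 8.22 through 9.30 to 10.5 CPM. The 95% interval of the log2 fold change ran from -0.17 to 0.46 after castration and from -0.21 to 0.22 after ovariectomy, with edgeR adjusted p of 0.594 and 0.992. With a term for library class, the male value of Hmox1 was 0.46 (SE 0.17, edgeR adjusted p = 0.159), and in short-fragment libraries alone it was also 0.46 (SE 0.17, edgeR adjusted p = 0.185). The 2 intact males of the short class had the lowest Hmox1 levels of the 5, at 6.29 and 7.42 CPM.

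**Figure D3:**
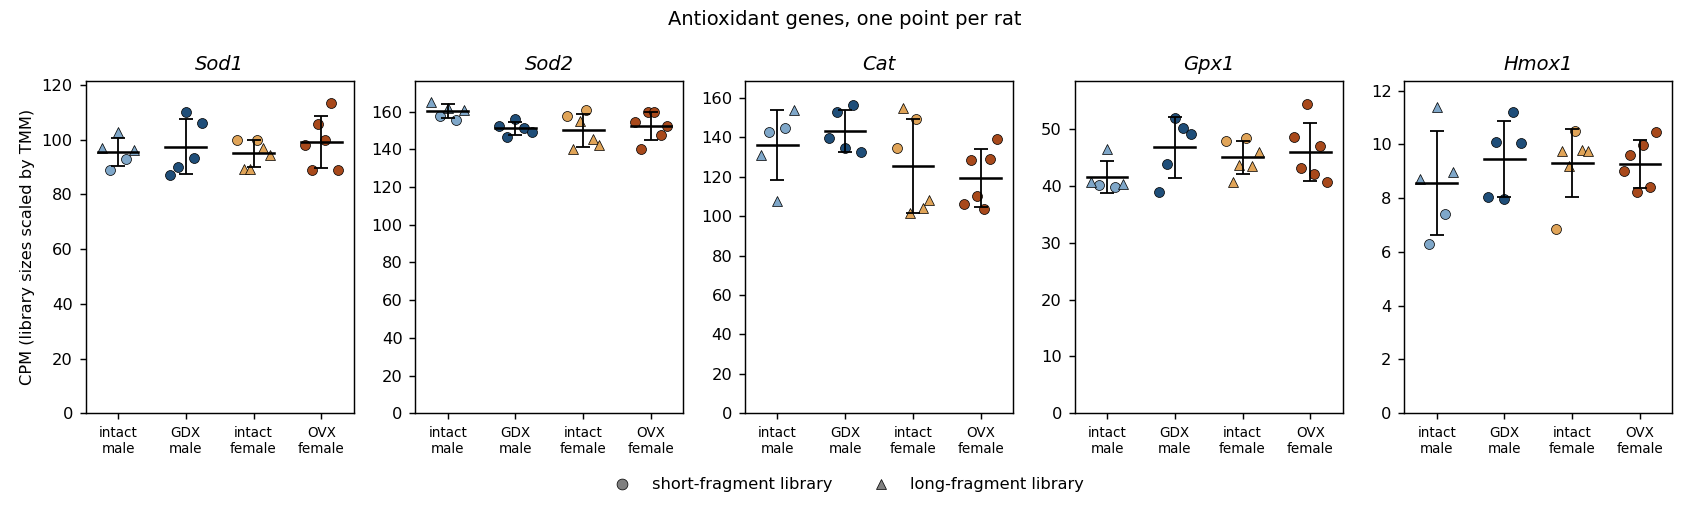
Levels of the 5 antioxidant genes in CPM (vertical axis, from 0) in each of the 22 rats, by group (horizontal axis). Circles are short-fragment and triangles long-fragment libraries, and lines and bars give the group mean and SD. Sod2 in GDX males lies between 146 and 156 CPM, mostly under the intact males, and the other genes overlap between gonadectomized and intact rats.

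**Figure D4:**
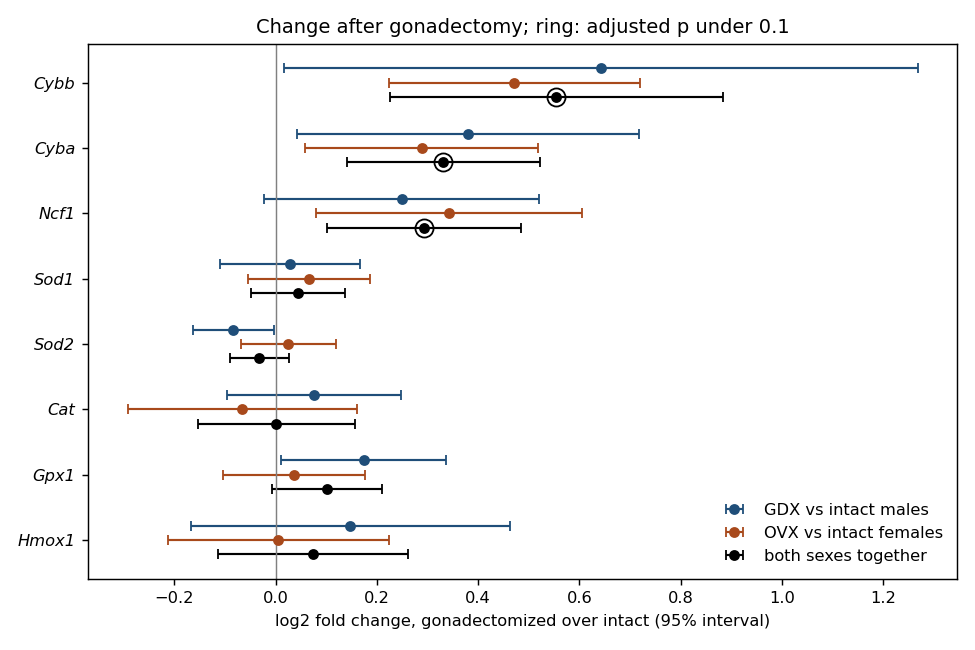
Log2 fold change of gonadectomized over intact rats (horizontal axis) with its 95% interval for the 8 genes that passed the filter, in males, in females and in both sexes together. Rings mark an adjusted p under 0.1, which only Cybb, Cyba and Ncf1 reached, and only with both sexes together.

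The response was also compared between the sexes by the interaction of sex and gonadectomy over all 22 libraries. In edgeR 0 of 8 genes were called, where 0.116% of all genes were, 0 of the 8 had an unadjusted p under 0.05, and DESeq2 called 0 as well, where it called 1.56% of all genes. The male change of Cybb exceeded the female one by 0.18 on the log2 scale, with a 95% interval from -0.48 to 0.83, and that of Cyba by 0.095, with an interval from -0.29 to 0.48. For Ncf1 the difference was -0.089, with an interval from -0.47 to 0.30. A difference between the sexes was not shown, and the intervals do not show that the responses were alike.

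Between intact males and intact females 0 of 8 genes were called in edgeR, where 4.01% of all genes were, 2 had an unadjusted p under 0.05, and DESeq2 called 0, where it called 5.49% of all genes. Cyba was lower in males by a log2 fold change of -0.28 (SE 0.13, edgeR adjusted p = 0.289), with 5.21 ± 0.644 CPM (SD, n = 5) against 6.36 ± 0.816 CPM (SD, n = 6). Sod2 was higher in males by 0.096 (SE 0.042, edgeR adjusted p = 0.280), with 160.3 ± 3.63 CPM (SD, n = 5) against 150.3 ± 8.74 CPM (SD, n = 6). Neither difference passed the threshold.

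Between GDX males and OVX females, all of the short class, 0 of 8 genes were called in edgeR, where 0.232% of all genes were, 1 had an unadjusted p under 0.05, and DESeq2 called 1, where it called 0.862% of all genes. This was Cat, for which GDX males had 143.3 ± 10.8 CPM (SD, n = 5) and OVX females 119.5 ± 14.7 CPM (SD, n = 6). Its log2 fold change was 0.27 (SE 0.076), with an adjusted p of 0.316 in edgeR and of 0.0915 in DESeq2, and 3 of 5 GDX males lay above all OVX females. The other 7 genes had adjusted edgeR p from 0.714 upwards in this comparison.

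In the order of the 4 group means, most neighbours differed by less than the larger of their SDs. The order was OVX female, GDX male, intact female and intact male for both Cybb and Cyba, from high to low. For Ncf1 it was GDX male, OVX female, intact male and intact female, so that both gonadectomized groups came first for all 3 NOX2 genes, as they did for Sod1 and Gpx1. Neighbouring groups differed by more than the larger SD only for Cyba, where intact females exceeded intact males by 1.15 CPM, for Sod2, where intact males exceeded OVX females by 7.86 CPM, and for Gpx1, where intact females exceeded intact males by 3.50 CPM. No 2 neighbouring groups had ranges that stood apart.

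NOX2 subunits are known as myeloid genes, so their levels were set beside those of myeloid markers. In bulk tissue, more cells of a type and more RNA per cell cannot be told apart. The microglial list of 9 detected genes had a summed level of 208 to 228 CPM in intact males, 212 to 274 CPM in GDX males, 190 to 237 CPM in intact females and 220 to 244 CPM in OVX females, and 0 of 9 markers were called in either sex in edgeR. The median log2 fold change of these markers was 0.14 after castration and 0.13 after ovariectomy. Markers of border-associated macrophages, which sit at the surface of the cord and around vessels, were at 10.6 to 20.8 CPM in intact and 22.03 to 31.3 CPM in GDX males, and 2 of 4 tested rose after castration. In females they were at 19.2 to 28.6 CPM in intact and 20.7 to 31.0 CPM in OVX rats, with 0 of 4 called. Granulocyte markers were at 1.64 to 2.90 CPM in intact and 2.85 to 18.1 CPM in GDX males. In females they were at 1.74 to 3.18 CPM in intact and 3.66 to 6.74 CPM in OVX rats. Of the 9 listed, only 1 passed the filter on low counts in males, where it was called higher. In females 2 passed, with 0 called. With so few genes tested near the floor, these calls do not describe the list. No marker of these lists was at 0 in all libraries, and the 4 lymphocyte markers together stayed under 1 CPM.

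Cybb, Cyba and Ncf1 were then expressed relative to the mean log2 CPM of the microglial list in the same library. After castration Cybb differed by 0.44 and Ncf1 by 0.079 on the log2 scale (exact permutation tests, two-sided p = 0.262 and 0.492), and Cyba by 0.19 (exact permutation p = 0.0397, adjusted over 6 tests 0.119). After ovariectomy Cybb differed by 0.31 (exact permutation p = 0.0195, adjusted 0.117), Cyba by 0.14 (exact permutation p = 0.294) and Ncf1 by 0.18 (exact permutation p = 0.249). In short-fragment libraries alone the male difference of Cybb was -0.023. Without GDX male 1 the male differences were 0.72 for Cybb and 0.24 for Cyba, with adjusted exact permutation p of 0.0794 and 0.0476. Without intact female 5 the female ones were 0.39 for Cybb and 0.23 for Cyba, with adjusted exact permutation p of 0.0260 and 0.0952. With all rats none of the 6 adjusted values passed 0.1, and the smallest p these exact tests allow is 0.00794 in males and 0.00216 in females. With border-associated macrophage markers added to the list, a choice made after seeing the data, Cybb after ovariectomy differed by 0.36 with an adjusted exact permutation p of 0.0389.

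Markers of meningeal fibroblasts, the collagen-rich cells of the membranes around the cord, moved with castration as a whole list. Their summed level was 68.5 to 202 CPM in intact males and 181 to 585 CPM in GDX males, and 9 of 9 tested rose. In females they were at 142 to 464 CPM in intact and 278 to 488 CPM in OVX rats, with 0 of 9 called. With the mean level of this list as a term, the log2 fold change of Cybb after castration turned to -0.58 (SE 0.39, edgeR adjusted p = 0.845) and that of Cyba became 0.037, while Ncf1 stayed at 0.22. Because the list itself rose with castration, the term cannot be told apart from castration in males, where the fit called 6 of all genes against 1995 without it. After ovariectomy, Cybb, Cyba and Ncf1 had 0.45, 0.25 and 0.31 with this term, close to the values without it. Erythroid markers rose after castration in 4 of 4 tested, from 9.36 to 23.2 CPM in intact to 18.8 to 98.1 CPM in GDX males, and endothelial markers in 5 of 5, at a median of 0.49 on the log2 scale. In females erythroid markers were at 5.32 to 32.1 CPM in intact and 27.6 to 45.8 CPM in OVX rats, and endothelial markers had a median log2 fold change of 0.49 as in males, with 0 of 5 called in either list. The part of these cells in the levels of the NOX2 genes was not tested further.

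**Figure D5:**
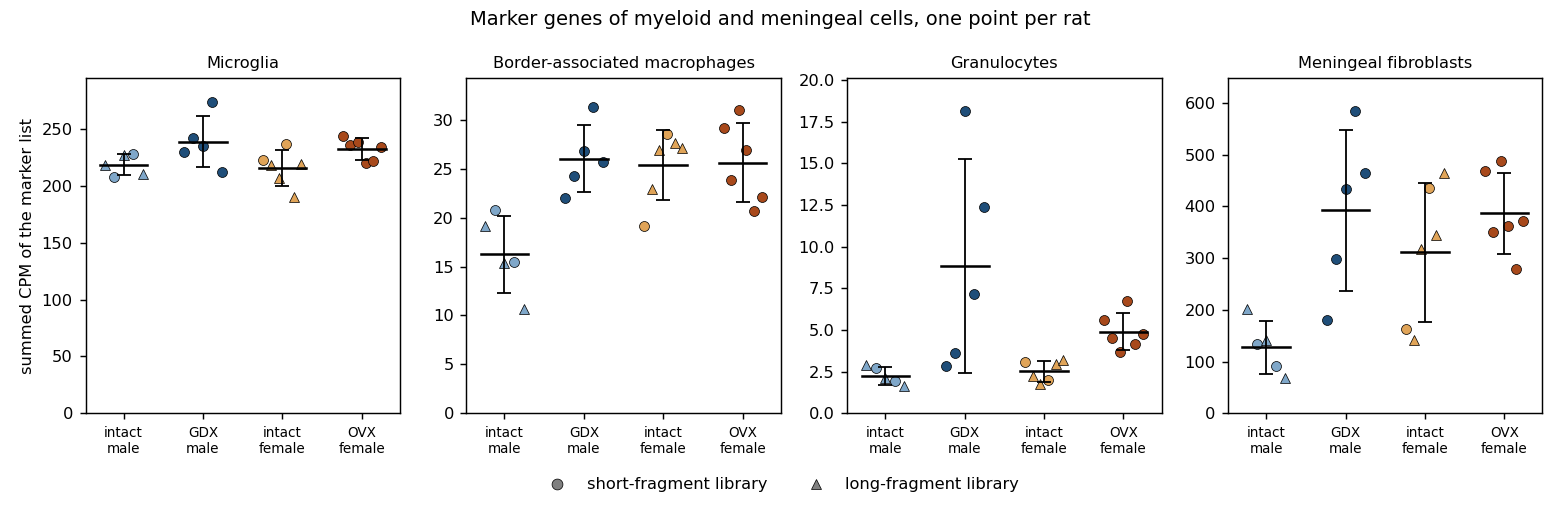
Summed CPM (vertical axis, from 0) of the marker lists of microglia, border-associated macrophages, granulocytes and meningeal fibroblasts in each of the 22 rats, by group. Microglial markers stay between 190 and 274 CPM, while meningeal fibroblast markers run from 68.5 CPM in an intact male to 585 CPM in a GDX male.

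The surrounding pathways were described by 6 lists that together name 69 genes. After castration 12 of 60 tested genes were called, 10 higher and 2 lower, where 13.4% of all genes were, with a median log2 fold change of 0.040 beside 0.0021 over all genes. After ovariectomy 0 of 59 were called in edgeR, where only 0.0335% of all genes were, with a median of -0.0091 beside 0.0025 over all genes. The calls after castration were 4 of 12 in glutathione synthesis and reduction, 3 of 9 in haem and iron handling, 2 of 12 among NRF2 and stress regulators, and 1 each of 7 NADPH oxidase partners, of 13 genes for superoxide and peroxide removal and of 7 genes of the thioredoxin system.

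Slc7a11, the cystine transporter that feeds glutathione synthesis, rose after castration by 0.73 on the log2 scale (SE 0.12, edgeR adjusted p = 0.00607), from 42.0 ± 7.63 to 69.5 ± 11.1 CPM (SD, n = 5 each). Txnip, an inhibitor of thioredoxin, rose by 0.38 (SE 0.067, edgeR adjusted p = 0.00636), and Nfe2l2, which encodes NRF2, the main activator of antioxidant genes, by 0.31 (SE 0.065, edgeR adjusted p = 0.0106). Gstm1, a glutathione S-transferase, rose by 0.29 (SE 0.087, edgeR adjusted p = 0.0518), Fth1, the heavy chain of the iron store ferritin, by 0.21 (SE 0.067, edgeR adjusted p = 0.0669), and Arhgdib by 0.44 (SE 0.14, edgeR adjusted p = 0.0656). Ppargc1a, a coactivator of mitochondrial genes, fell by 0.23 (SE 0.063, edgeR adjusted p = 0.0375), and Prdx2, a peroxiredoxin that removes peroxide, by 0.14 (SE 0.047, edgeR adjusted p = 0.0831). In short-fragment libraries alone, the adjusted edgeR p of Txnip was 0.118, of Nfe2l2 0.145, of Gstm1 0.424, of Fth1 0.135, of Arhgdib 0.338 and of Prdx2 0.496, so that these calls were lost, whereas Slc7a11 and Ppargc1a kept theirs. That fit held only 2 intact males and called 440 genes in all, against 1995 with all males. The log2 fold changes in short-fragment libraries were 0.32 for Txnip, 0.29 for Nfe2l2, 0.17 for Gstm1, 0.26 for Fth1, 0.34 for Arhgdib and -0.076 for Prdx2, so that Txnip, Nfe2l2 and Fth1 stayed near their values over all libraries or above them. With 1 male left out, Arhgdib, Fth1 and Prdx2 each lost the call in 6 of 10 fits and Gstm1 in 2, those without intact male 1 or intact male 6, with adjusted edgeR p of 0.1003 to 0.171. With the meningeal level as a term, none of these 8 genes was called, in a fit that called 6 genes in all against 1995 without the term. On the log2 scale the change was then 0.21 for Slc7a11, 0.19 for Txnip, 0.16 for Nfe2l2, 0.46 for Gstm1, 0.037 for Fth1, -0.012 for Arhgdib, -0.15 for Ppargc1a and -0.11 for Prdx2.

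Between intact males and intact females 5 of 59 pathway genes were called, all lower in males, where 4.01% of all genes were called. Cd163, the haemoglobin scavenger receptor of macrophages and also one of the border-associated macrophage markers, was lower by a log2 fold change of -1.40 (SE 0.30, edgeR adjusted p = 0.0241), with 1.65 ± 0.970 CPM (SD, n = 5) against 4.34 ± 1.03 CPM (SD, n = 6). Fth1 differed by -0.26 (SE 0.053, edgeR adjusted p = 0.0191), Nfe2l2 by -0.21 (SE 0.046, edgeR adjusted p = 0.0246), Slc7a11 by -0.46 (SE 0.13, edgeR adjusted p = 0.0765) and Gstp1, another glutathione S-transferase, by -0.17 (SE 0.046, edgeR adjusted p = 0.0725). Meningeal fibroblast markers were lower in intact males in the same comparison, 7 of 9 of them called. In short-fragment libraries alone, which left 2 rats of each sex, 0 of the 5 pathway genes were called in edgeR, where 34 of all genes were. Fold changes there, on the log2 scale, were -0.33 for Fth1, -0.55 for Cd163, -0.20 for Nfe2l2, -0.12 for Gstp1 and -0.41 for Slc7a11. With 1 rat left out, Gstp1 and Slc7a11 each lost the call in 7 of 11 fits, with adjusted edgeR p of 0.1003 to 0.158. Fth1, Nfe2l2 and Slc7a11 were thus lower in intact than in GDX males and lower in intact males than in intact females, and both comparisons share the same 5 intact males. Between GDX males and OVX females, and in the interaction, 0 of 60 were called in edgeR, where only 0.232% and 0.116% of all genes were. Jointly over both sexes 11 of 60 were called, 9 higher and 2 lower, near the 16% of all genes.

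The genes also varied among rats of the same group. For this description log2 CPM was centred on the 4 group means, so that the 22 values of a gene hold only differences within groups. Sod1 and Gpx1 varied together most among the 8 genes, with Pearson's r of 0.74, and Cybb with Gpx1 had r of 0.52. Cybb had r of 0.40 with Cyba and of -0.019 with Ncf1, and Cyba had r of 0.37 with Ncf1. Against the mean of the microglial list, r was 0.16 for Cybb, 0.44 for Cyba and 0.39 for Ncf1. These values share library depth and composition, and no test was made of them. Over all 22 libraries, the SD of log2 CPM within groups was 0.45 for Cybb, 0.21 for Cyba, 0.24 for Ncf1, 0.23 for Hmox1, 0.20 for Cat, 0.13 for Gpx1, 0.11 for Sod1 and 0.063 for Sod2.

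Among 11265 genes with a mean of at least 5 CPM, the 2 whose levels within groups were most like each gene were ranked by Pearson's r over the 22 libraries. For Cybb these were Rcn3 (r = 0.78) and Gm24119 (r = 0.78), for Cyba Pla2g15 (r = 0.77) and Zfand6 (r = 0.74), and for Ncf1 Jup (r = 0.72) and Abca1 (r = 0.72). Sod1 was most like Psmc5 (r = 0.89), a proteasome subunit, and Ndufs1 (r = 0.86), a subunit of respiratory complex I. Sod2 was most like Trmt10c (r = 0.81) and Ndufs8 (r = 0.77), both of which encode mitochondrial proteins. Without centring on the group means, Sod2 was instead most like Arpc5l (r = 0.75) and Cand1 (r = 0.74). For Cyba and Cat too, 0 of the 2 named genes stayed without centring. Gpx1 was most like Mrfap1 (r = 0.93) and Tmed7 (r = 0.91), Cat like Dhx33 (r = 0.75) and Igbp1 (r = 0.72), and Hmox1 was like Hspb8 (r = 0.79). The highest r among so many genes is large by selection, and it describes these libraries only.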

How the data were processed

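RNA from the ventral cervical cord of 22 rats was sequenced with 1 library per rat. The deposited values are counts of reads per gene, which the authors had not normalized. The study's methods name Trimmomatic for trimming, Hisat2 for mapping to Rnor_6.0 and featureCounts for counting, whereas the submitters' processing notes name TopHat2 2.0.13 and Subread. The kit is likewise named differently in the 2 sources, and strand and multi-mapping settings are not given in the sources used here. Reads from overlapping or near-identical genes therefore stay uncertain. The libraries held 12371756 to 17571887 counted reads, without molecular identifiers.

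From these counts, genes were kept by filterByExpr, scaled by TMM factors and tested with glmQLFit and glmQLFTest of edgeR 4.0.16 in R 4.3.3, within the libraries of each comparison, with Benjamini-Hochberg adjustment over all genes tested and a threshold of 0.1. Log2 CPM used a prior count of 2. Ratios to the microglial list were compared by exact two-sided permutation tests with SciPy 1.17.1. Alternatives were RLE factors, no filter, DESeq2 1.42.0, all 22 libraries in 1 fit, the library class as a term, short-fragment libraries only, the rat number as a block, the mean meningeal level as a term and each rat left out in turn. The library class was read from the average input fragment size in the study's mapping table. The genes, pathway lists, marker lists and tests were chosen with earlier results of these data known. All 9 genes are named, from the pathway lists up to 6 called genes with the smallest p in each direction of a comparison, and for each gene that passed the filter the 2 genes most like it, of which 1 is not reported here. The comparison of both sexes together was added after the data were seen. The tests were checked on simulated data. In the male comparison 73.1% of genes changed by 0.5 on the log2 scale were called, with 12.6% false calls among all calls, and in the female comparison 65.7%, with 8.65% false calls. The changed genes were drawn at random from all genes tested, and noise was drawn separately for each gene and library. These shares therefore do not tell how often a change of a NOX2 gene would be called, nor do they include shifts shared by many genes. Promoter sequences came from RefSeq (GRCr8).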

Additional observations from a re-analysis of the deposited data

Results flagged for a closer look

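In 36 groups of 5 or 6 rats, 1 for each of the 9 genes and 4 groups, the highest and the lowest value were compared with the rest by Dixon's test at 95%, and 3 stood apart. Chance alone gives about 1 in 20 such groups. The Cyba level of GDX male 5 was 9.50 CPM, while the other GDX males had 5.54 to 6.58 CPM. The Gpx1 level of intact male 3 was 46.6 CPM, while the other intact males had 39.8 to 40.8 CPM. The Hmox1 level of intact female 1 was 6.86 CPM, while the other intact females had 9.21 to 10.5 CPM.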

How the results depend on the processing

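The number of the 8 genes called stayed at 0 in males, females, between the sexes and in the interaction under most settings. It was 2 in males with all 22 libraries in 1 fit (Cybb and Cyba), 1 in females (Cybb) and 1 between GDX males and OVX females (Cat) with DESeq2. Jointly it was 3, and it was 0 with the library class as a term, 0 with short-fragment libraries only and 0 with the meningeal level as a term. These settings also called fewer of all genes, as given below. With 1 rat left out, the number of the 8 genes called was 0 to 2 in males, where the 2 came without GDX male 1, 0 in every fit of females, intact rats, gonadectomized rats and the interaction, and 3 to 4 jointly. The fit without GDX male 1 also called the most of all genes among the 10 male fits, 2446 against 1995 with all males.

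Signs turned mostly where a value was near 0. In males, the log2 fold change of Cat was -0.0044 with the class term and -0.0032 in short-fragment libraries. With the meningeal term, Cybb was -0.58, Sod1 -0.10, Gpx1 -0.087, Hmox1 -0.043 and Arhgdib -0.012. In females, the class term gave Sod1 -0.0093, Sod2 -0.061 and Gpx1 -0.063, and the short-fragment libraries gave -0.013, -0.065 and -0.067. The meningeal term gave Hmox1 -0.029 and Gpx1 -0.00063 in females and Gpx1 -0.033 jointly. In short-fragment libraries Sod2 was -0.022 between intact males and females, and the interaction was -0.10 for Cybb, -0.0089 for Cyba and 0.013 for Sod2. The meningeal term gave an interaction of -0.37 for Cybb and -0.12 for Cyba. Relative to microglial markers, Cybb after castration was -0.023 in short-fragment libraries. With macrophage markers added, Ncf1 after castration was -0.11, and Cybb after ovariectomy, at 0.36, passed the threshold. The cause of these changes was not tested.

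With 1 rat left out, the log2 fold change ran from -0.020 to 0.063 for Sod1 in males, from -0.12 to 3.3e-05 for Cat, from -0.021 to 0.067 for Gpx1 and from -0.072 to 0.038 for Hmox1 in females, and from -0.053 to 0.16 for Cyba and from -0.0049 to 0.37 for Cybb in the interaction. Relative to microglial markers it ran from 0.23 to 0.72 for Cybb and from 0.13 to 0.24 for Cyba in males, and from 0.27 to 0.39 and from 0.083 to 0.23 in females.

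Over all genes, the number called moved by more than 1.5 times under several settings. In males it was 1995, and 796 with the class term, 440 in short-fragment libraries and 6 with the meningeal term. In females it was 5, and 174 with DESeq2, 11 with no filter, 9 with all libraries in 1 fit, 8 with the meningeal term and 3 with the class term. Between intact rats it was 599, and 34 in short-fragment libraries. Between gonadectomized rats it was 35, and 130 with DESeq2 and 61 with all libraries in 1 fit. In the interaction it was 18, and 243 with DESeq2, 33 with no filter, 6 with the class term, 5 in short-fragment libraries and 1 with the meningeal term. Jointly it was 2486, and 662 with the class term, 296 in short-fragment libraries and 180 with the meningeal term. With a rat left out it ran from 0 to 113 in females and from 1 to 275 in the interaction. It was 1202 in males without GDX male 5, 352 and 385 between intact rats without intact male 1 or 5, and 23 between gonadectomized rats without OVX female 1.

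Rats of the same number were not treated as pairs in the tests, and the labels do not say whether the numbers stand for any pairing. The correlation of deviations between same-numbered rats ran from -0.11 to 0.063 and exceeded 0.1 in 0 pairs, which cannot show that no pairing was present. With the rat number as a replicate block, 1 of the 8 genes was called in males (Ncf1, with a log2 fold change of 0.34), 0 in females and 3 jointly, and the number of all genes called was 1274 in males, 0 in females, 255 between intact rats and 0 in the interaction. The library class could not be fitted between GDX males and OVX females, which were all of the short class. Counts of 32 to 239 reads per library for the NOX2 genes limit the precision more than for Sod1, Sod2, Cat and Gpx1, which had 523 to 2872.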
